A study of Mus musculus with 16 samples.

Results

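The first response of macrophages to interferon-gamma was measured after 3 h, as the genome-wide change of 2 naive 3 h arrays (replicates 1 and 2) from 2 naive 0 h arrays (replicates 3 and 4). These are 4 of the 16 arrays of the series. They were chosen by their labels: naive cells, 3 h or 0 h, and array numbers that place them in the same set of 8 arrays (set 2). The cells were bone-marrow derived macrophages, grown from the marrow of mice with an H3.3-HA knock-in (an HA-tagged replacement histone) in DMEM with 10% FBS and 10% L-cell conditioned medium, a source of the growth factor Csf1. Both groups carry the knock-in and differ only in interferon-gamma, whose dose is not given in the sources used here, and in time: naive 3 h cells were sampled 3 h into treatment and naive 0 h cells at its start. No unstimulated cells were sampled at 3 h, so the effect of interferon and that of handling or hours in culture cannot be told apart in any value below. Whether the replicates came from different cultures or animals is not in the labels. The p-values measure the spread between replicate arrays, estimated over all 16 arrays of the series, and that spread may be technical.

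Interferon-gamma is made by T and NK cells and is the classical activator of macrophages. It binds the receptor pair Ifngr1 and Ifngr2, to which the kinases Jak1 and Jak2 are attached. The signal acts through gamma-activated sites in DNA and switches on a first set of genes, among them Irf1, a transcription factor that binds interferon-stimulated response elements and drives a further set. The products attack intracellular pathogens, present antigen, recruit T cells and, through the Socs proteins, shut the signal off again.

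To show what such DNA elements look like in the genes that responded, the 250 bases before the start of 8 genes that rose are printed 5′ to 3′ on the gene's strand, from RefSeq (GRCm38.p6). Capitals mark matches to TTCNNNGAA, the core of a gamma-activated site, which is its own reverse complement, or to GAAA, any 2 bases and GAAA again (GAAA-NN-GAAA) on either strand, the core of an interferon-stimulated response element. Matches that overlap run together. A match is a description of the letters and not a binding site. The genes were chosen after their values were seen.
Irf1 (chr11:53769764-53770013, plus strand): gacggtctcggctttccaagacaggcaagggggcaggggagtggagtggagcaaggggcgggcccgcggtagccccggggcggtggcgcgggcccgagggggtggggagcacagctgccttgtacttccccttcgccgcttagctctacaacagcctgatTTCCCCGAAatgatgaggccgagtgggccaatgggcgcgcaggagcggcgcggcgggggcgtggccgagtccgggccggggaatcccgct
Socs3 (chr11:117969367-117969616, minus strand): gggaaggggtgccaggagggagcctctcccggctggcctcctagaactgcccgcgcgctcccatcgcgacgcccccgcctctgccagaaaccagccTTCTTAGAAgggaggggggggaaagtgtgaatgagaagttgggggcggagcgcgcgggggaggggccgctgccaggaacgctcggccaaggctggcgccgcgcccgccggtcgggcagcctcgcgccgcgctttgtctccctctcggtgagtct
Irf8 (chr8:120736108-120736357, plus strand): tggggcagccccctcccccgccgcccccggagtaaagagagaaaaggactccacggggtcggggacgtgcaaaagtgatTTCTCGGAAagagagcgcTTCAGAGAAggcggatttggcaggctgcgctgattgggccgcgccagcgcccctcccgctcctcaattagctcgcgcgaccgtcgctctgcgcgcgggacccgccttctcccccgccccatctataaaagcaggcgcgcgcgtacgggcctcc
Icam1 (chr9:21015690-21015939, plus strand): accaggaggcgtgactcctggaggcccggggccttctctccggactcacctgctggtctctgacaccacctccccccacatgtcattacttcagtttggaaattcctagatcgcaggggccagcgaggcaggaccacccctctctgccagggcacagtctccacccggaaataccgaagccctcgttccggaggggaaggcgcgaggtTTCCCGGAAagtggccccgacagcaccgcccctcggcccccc
Gbp5 (chr3:142496684-142496933, plus strand): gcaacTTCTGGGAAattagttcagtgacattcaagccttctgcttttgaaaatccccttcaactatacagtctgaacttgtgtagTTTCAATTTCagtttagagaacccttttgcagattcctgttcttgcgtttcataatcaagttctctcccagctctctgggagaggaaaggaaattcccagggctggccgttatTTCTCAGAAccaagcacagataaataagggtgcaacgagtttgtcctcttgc
Socs1 (chr16:10785537-10785786, minus strand): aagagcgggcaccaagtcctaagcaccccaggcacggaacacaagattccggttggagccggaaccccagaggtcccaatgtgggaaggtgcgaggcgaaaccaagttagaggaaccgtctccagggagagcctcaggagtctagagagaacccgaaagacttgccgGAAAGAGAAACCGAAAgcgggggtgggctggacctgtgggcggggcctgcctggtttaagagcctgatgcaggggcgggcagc
Cxcl10 (chr5:92348890-92349139, minus strand): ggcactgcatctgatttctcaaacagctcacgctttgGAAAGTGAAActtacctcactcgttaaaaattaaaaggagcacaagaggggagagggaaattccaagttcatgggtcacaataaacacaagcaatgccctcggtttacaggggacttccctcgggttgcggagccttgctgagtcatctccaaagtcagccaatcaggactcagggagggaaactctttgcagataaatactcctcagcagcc
Cxcl9 (chr5:92328080-92328329, minus strand): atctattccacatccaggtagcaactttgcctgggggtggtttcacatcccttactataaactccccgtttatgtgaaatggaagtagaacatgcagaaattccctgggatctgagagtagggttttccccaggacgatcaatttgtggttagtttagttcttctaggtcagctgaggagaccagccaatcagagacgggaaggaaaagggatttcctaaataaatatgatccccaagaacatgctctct
In Irf1 a gamma-activated match lies 90 bases before the start. The matches lie 154 bases before the start in Socs3, 171 and 153 bases in Irf8 and 42 bases in Icam1. Gbp5 holds TTCNNNGAA at 245 and 52 bases and GAAA-NN-GAAA at 165 bases. Socs1 holds overlapping GAAA-NN-GAAA matches at 83 and 77 bases, Cxcl10 one at 213 bases, and the window of Cxcl9 neither. RefSeq lists a second start for Irf1 and for Irf8, and neither motif is in the window of that start. Windows of 300 bases, 250 before and 50 after a start, were found for 15563 of the 19938 genes measured. Among 685 windows of genes that rose, 12.4% held TTCNNNGAA, against 7.68% of the 19116 windows of all measured genes. GAAA-NN-GAAA was in 11.2% of the windows of genes that rose and in 3.27% of all. Among 86 windows of genes that rose by a log2 change of at least 2, the shares were 18.6% and 25.6%. Among 443 windows of genes that fell they were 5.19% and 1.35%. GGG, any 5 bases and CC, a loose form of the NF-kappa-B motif, was in 64.4% of the windows of genes that rose, 66.8% of those that fell and 58.9% of all, on either strand.

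At 3 h 671 of 19938 genes, 3.37%, were higher and 417, 2.09%, were lower in naive 3 h than in naive 0 h cells, and these are called risen and fallen below. A call is an adjusted p under 0.05 in the limma fit, adjusted by Benjamini-Hochberg over all genes. At an unadjusted p under 0.05 there were 1388 higher and 1666 lower genes. Values are log2 intensities, so a log2 change of 1 is a doubling, and the value after ± is the SE from the fit. The rises were the larger changes: 101 risen genes changed by a log2 change of at least 2 and 45 by at least 3, against 14 and 1 of the fallen genes. The median size was 1.03 among risen and 0.79 among fallen genes, and the median change of all genes was 0. Whichever of the 4 arrays was omitted, 350 of the risen genes (52.2%) and 91 of the fallen genes (21.8%) were still called. The counts were 493 risen and 223 fallen on leaving out replicate 3 of naive 0 h, 455 and 205 on leaving out replicate 4 of naive 0 h, 457 and 206 on leaving out replicate 1 of naive 3 h, and 421 and 122 on leaving out replicate 2 of naive 3 h. Arrays at positions 1 and 3 of set 2 in the sample titles, and likewise those at positions 5 and 7, deviated together from their group means (correlation 0.644 across genes). With these positions as a block in the fit 952 genes were higher and 973 lower, so the number of fallen genes and the balance of rises and falls depend on that term. All 215 called genes counted among those named were still called with the block. Of the genes given below without a call, 9 passed with it, at adjusted p of 3.73e-05 for Ccl5, 8.62e-05 for Cd28, 0.000626 for Ch25h, 0.00372 for Ciita, 0.00417 for Bhlhe41, 0.00886 for Oasl1, 0.0109 for Mx2, 0.0322 for Cd80 and 0.0388 for Cxcl2. In 74 of the risen genes the naive 0 h mean lay under log2 6.5, and in 23 of the fallen genes the naive 3 h mean did. Such low levels are not shown to be above background, so the size of such a change is not exact, and no fold is given where a mean lies under that limit.

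**Figure D1:**
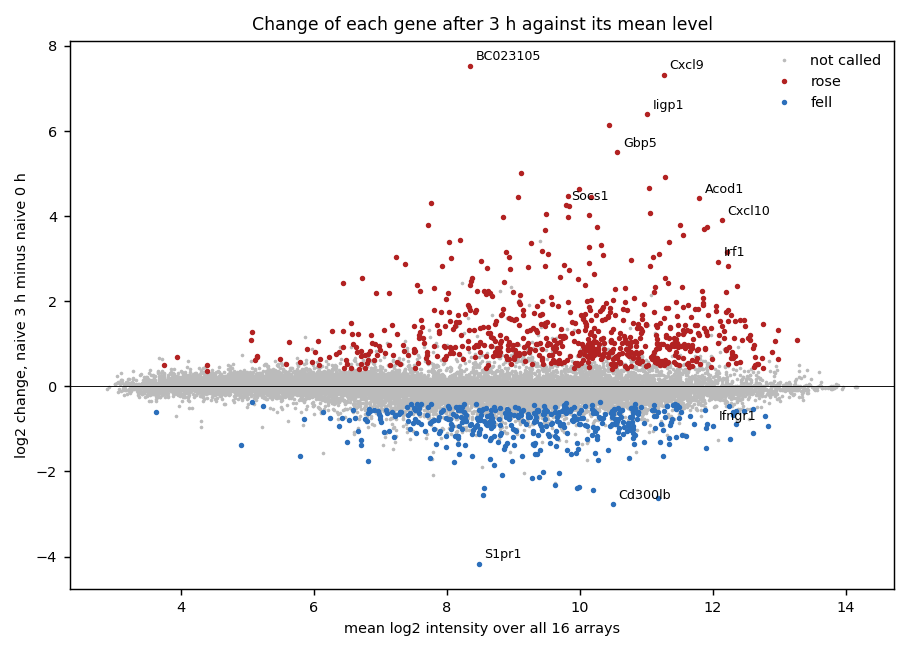
Each point is a gene, with its mean log2 intensity over all 16 arrays on the horizontal axis and its log2 change, naive 3 h minus naive 0 h, on the vertical axis. Risen genes (671, red) reach 7.54 and fallen genes (417, blue) reach -4.17; most of the other genes (grey) lie near 0.

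Macrophage markers were present in both groups. All 10 macrophage markers measured, among them the Csf1 receptor Csf1r, Adgre1 and Cd68, had group means between 10.98 and 13.88, and 1 of them, the Fc receptor Fcgr1, rose. None of the 10 T and NK, 7 B, 10 neutrophil, 10 dendritic or 8 stromal, erythroid and mast cell markers measured was called in either direction. Of all genes only 5.46% were called, so the lack of calls among so few markers says little about these cells. The level summed over the T and NK markers was 12.24 and 10.28 (log2) in naive 3 h cells, against 12.92 and 11.11 in naive 0 h cells. Cd28, one of these markers, had 10.43 and 7.83 in naive 3 h cells, against 11.95 and 9.79 in naive 0 h cells. Summed B cell markers were at 9.68 and 9.74 in naive 3 h cells and 9.62 and 9.49 in naive 0 h cells. Neutrophil markers were at 9.77 and 9.38 in naive 3 h cells and 9.94 and 9.33 in naive 0 h cells. Dendritic markers were at 11.43 and 11.71 in naive 3 h cells and 10.97 and 11.36 in naive 0 h cells. Stromal, erythroid and mast cell markers were at 9.73 and 9.69 in naive 3 h cells and 9.61 and 9.62 in naive 0 h cells. Group means lay under 6.5 for 6 of 10 T and NK, 5 of 7 B, 9 of 10 neutrophil, 5 of 10 dendritic and 4 of 8 stromal, erythroid and mast cell markers in naive 3 h cells, and for 8, 5, 9, 7 and 5 of them in naive 0 h cells. The part of such cells in the changes below was not tested.

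Both chains of the interferon-gamma receptor were lower, while the kinase Jak2 and 4 STATs were higher. Of 13 measured genes for interferon receptors, JAK kinases and STATs 5 rose and 2 fell, with a median log2 change of 0.07. Ifngr1, the chain that binds the cytokine, had 11.24 and 11.26 in naive 3 h cells, against 12.2 and 12.16 in naive 0 h cells (-0.93 ± 0.14, limma adjusted p = 0.00164). Ifngr2, the accessory chain, had 12.22 and 11.77 in naive 3 h cells, against 12.62 and 12.52 in naive 0 h cells (-0.58 ± 0.14, limma adjusted p = 0.0351), and lost the call on leaving out either naive 0 h array or replicate 2 of naive 3 h (adjusted p as high as 0.359). The groups do not overlap for either chain, but 24.4% of all genes were likewise lower without overlap.

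Further down the chain, Jak2, the kinase bound to Ifngr2, rose by 1.07 ± 0.18, with 10.18 and 10.27 in naive 3 h cells, against 9.29 and 9.01 in naive 0 h cells. Jak1 did not pass (0.07 ± 0.1, limma adjusted p = 0.864). Stat2, which acts in type I interferon signalling, was 2.46-fold higher, with 12.08 and 12.12 in naive 3 h cells, against 10.68 and 10.92 in naive 0 h cells (1.3 ± 0.11, limma adjusted p = 1.62e-05). Stat3, which carries signals of the IL-6 and IL-10 families, was 2.3-fold higher, and Stat5a and Stat5b, which carry those of Csf2 and growth hormone, 1.82 and 1.85-fold higher. The 5 rises kept the call whichever of the 4 arrays was omitted. Irf9, the DNA-binding partner of Stat2, was at 0.12 ± 0.1 (limma adjusted p = 0.696).

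Inhibitors of the signal were among the largest rises. Of 15 genes that inhibit cytokine and interferon signalling 6 rose and none fell (median 0.37). Socs1, which blocks JAK kinases at the interferon receptors, was 19.1-fold higher, with 11.82 and 11.89 in naive 3 h cells, against 7.45 and 7.75 in naive 0 h cells (4.25 ± 0.15, limma adjusted p = 8.97e-09). Socs3, which acts mainly on the receptors of the IL-6 family, had 11.4 and 11.47 in naive 3 h cells, against 7.62 and 7.16 in naive 0 h cells (4.04 ± 0.21). A second array feature of Socs3 gave a smaller rise, 1.73 (limma adjusted p = 0.000582). Cish, an inhibitor of Stat5 signalling, had 9.52 and 9.83 in naive 3 h cells, against 6.98 and 6.73 in naive 0 h cells (2.82 ± 0.17). In all 3 genes the lowest naive 3 h array lies more than a log2 unit above the highest naive 0 h array. The other 3 rises were smaller, and each lost the call with some arrays left out. They are Usp18, which removes Isg15 from proteins and blocks the type I interferon receptor (1.85 ± 0.34, adjusted p as high as 0.0786), the phosphatase Ptpn2 (0.95 ± 0.18, as high as 0.0637) and Socs7 (0.81 ± 0.17, as high as 0.1). The highest value came on leaving out replicate 2 of naive 3 h for Usp18, on leaving out replicate 1 of naive 3 h for Ptpn2 and on leaving out replicate 4 of naive 0 h for Socs7.

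Some factors of the IRF and BATF families and the transactivator Nlrc5 rose. Of 21 IRF, BATF and NLR transcription regulators 10 rose and none fell (median 0.7). Batf2, which pairs with Irf1 and is known for its part in interferon-activated macrophages, had 11.9 and 11.91 in naive 3 h cells, against 7.46 and 7.47 in naive 0 h cells, a 21.7-fold difference (4.44 ± 0.18, limma adjusted p = 3.1e-08). Irf1 had 13.03 and 13.05 in naive 3 h cells, against 10.27 and 9.95 in naive 0 h cells (2.93 ± 0.15, 7.62-fold). A second feature of Irf1 gave 2.22. Nlrc5, the transactivator of MHC class I genes, had 12.38 and 12.29 in naive 3 h cells, against 9.81 and 10.17 in naive 0 h cells (2.35 ± 0.14, 5.08-fold), and the smallest rise among its 19 features was 1.62. Replicates of these 3 genes differ by far less than the groups. Irf7, the master factor of the type I interferon loop, was 3.53-fold higher and Irf8, a factor of the myeloid lineage, 2.94-fold higher. Nfil3 rose by 1.57 ± 0.12, the repressor Etv6 by 1.29 ± 0.23 and Irf2, a competitor of Irf1, by 0.7 ± 0.11. Batf3 (0.67 ± 0.13) and Cebpb (0.82 ± 0.19) lost the call with some arrays left out, at adjusted p as high as 0.0717 on leaving out replicate 3 of naive 0 h and as high as 0.129 on leaving out replicate 1 of naive 3 h. Ciita, the transactivator of MHC class II genes, did not pass, as given with those genes below.

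The interferon-inducible GTPases, which coat and break the vacuoles of intracellular bacteria and parasites, were the list with the largest share of risen members. Of 11 measured, 10 rose and none fell (median 3.69), and all 10 kept the call whichever of the 4 arrays was omitted. Gbp5, a guanylate-binding protein that also acts on inflammasomes, was 45.3-fold higher, with 12.61 and 12.32 in naive 3 h cells, against 7.38 and 6.55 in naive 0 h cells (5.5 ± 0.35, limma adjusted p = 1.21e-06). Gbp4 had 11.79 and 11.4 in naive 3 h cells, against 5.59 and 5.3 in naive 0 h cells, both naive 0 h values under the limit of 6.5. Iigp1, an immunity-related GTPase that acts on vacuoles of Toxoplasma, had 12.66 and 12.67 in naive 3 h cells, against 6.17 and 6.37 in naive 0 h cells (6.39 ± 0.27). In these 3 genes the groups are at least 4 log2 units apart on every array. Gbp3, Gbp11 and Gbp7 were 16.8, 15.9 and 12.9-fold higher, Gbp8 and Gbp9 10.0 and 8.64-fold, and Irgm1, a regulator of the other GTPases, 5.15-fold. Gbp2b rose by 2.24 ± 0.4 from a mean under the limit. Outside this list, 3 genes next to Iigp1 on chromosome 18 rose as well. BC023105 had 11.23 and 11.45 in naive 3 h cells, against 3.88 and 3.72 in naive 0 h cells, a fitted change of 7.54 ± 0.38 from a mean under 6.5. Gm4951 and Gm4841 rose by 4.91 ± 0.21 and 4.44 ± 0.2.

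**Figure D2:**
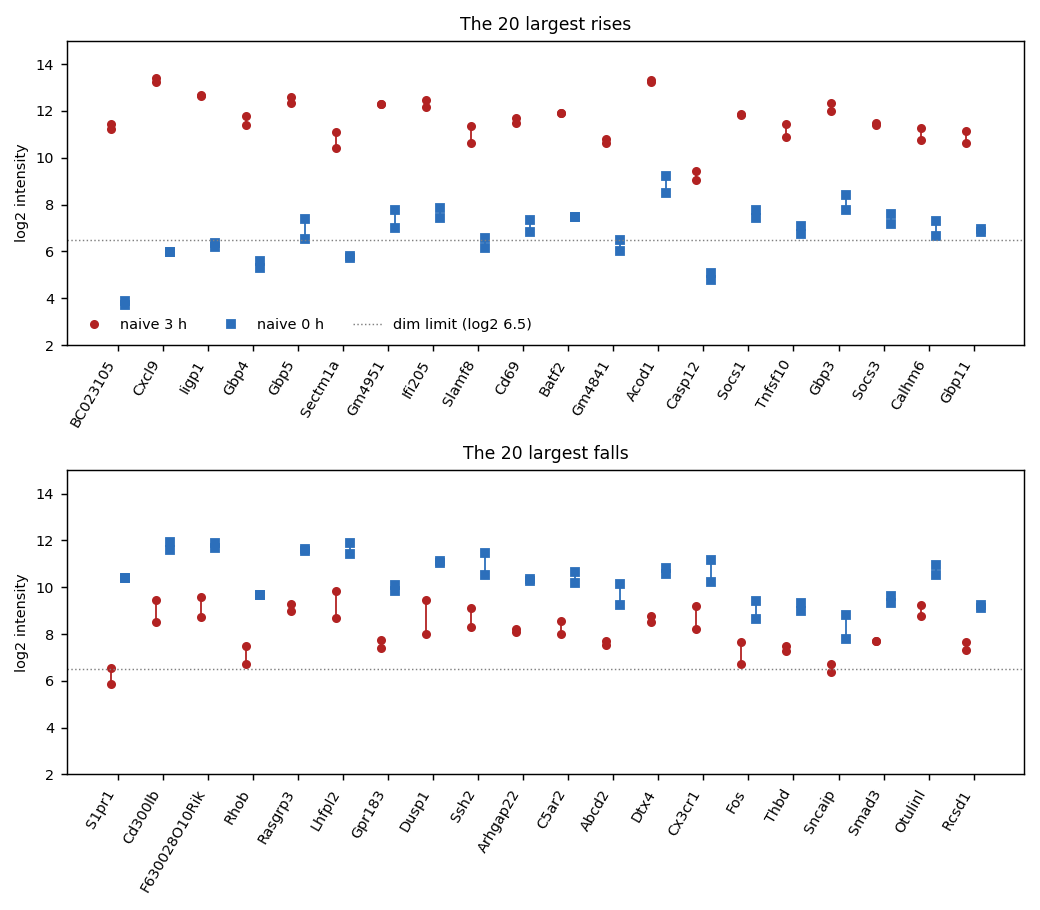
Log2 intensity of each array for the 20 largest rises (top) and the 20 largest falls (bottom), with naive 3 h arrays as red circles left of naive 0 h arrays as blue squares; a line joins the 2 arrays of a group and the dotted line is the limit of 6.5. Only genes whose groups do not overlap were eligible for either panel, and the rises span more of the scale than the falls do.

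Chemokines that attract activated T cells rose, while most other chemokines were not called. Of 21 chemokines 5 rose and none fell (median 0.06). Cxcl9 had 13.39 and 13.22 in naive 3 h cells, against 5.99 and 5.98 in naive 0 h cells (7.32 ± 0.17, limma adjusted p = 1.69e-10). Cxcl10 had 13.98 and 14.12 in naive 3 h cells, against 9.62 and 10.66 in naive 0 h cells (3.91 ± 0.28, 15.1-fold). Cxcl11 had 9.46 and 9.47 in naive 3 h cells, against 6.78 and 6.58 in naive 0 h cells (2.78 ± 0.33, 6.87-fold). All 3 are ligands of Cxcr3, a chemokine receptor on activated T cells. In none of the 3 did a naive 0 h array reach a naive 3 h array. Of all genes, 23.3% were likewise higher without overlap. Ccl8 rose by 3.04 ± 0.31 and Ccl12 by 3.79 ± 0.74, both monocyte attractants with naive 0 h means under 6.5, and Ccl12 lost the call on leaving out replicate 3 of naive 0 h or replicate 2 of naive 3 h (adjusted p as high as 0.0986). Ccl5 (1.44 ± 0.4, limma adjusted p = 0.0593) and the neutrophil attractant Cxcl2 (-1.53 ± 0.43, limma adjusted p = 0.061) did not pass. Ccl2 had 11.08 and 12.04 in naive 3 h cells, against 9.22 and 11.76 in naive 0 h cells (1.07 ± 0.78), so its groups overlap.

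Genes of the MHC class I pathway rose from the proteasome to peptide loading, though by less than the GTPases named above. Of 12 class I genes 6 rose and none fell (median 0.49), all kept whichever of the 4 arrays was omitted. Tap1 had 12.27 and 12.16 in naive 3 h cells, against 10.1 and 10.39 in naive 0 h cells (1.97 ± 0.12, limma adjusted p = 1.05e-06), and Tap2, its partner in the peptide transporter, was 2.26-fold higher. The loading factor Tapbpl was 3.39-fold and tapasin, Tapbp, 1.62-fold higher. Of the heavy chains H2-T24 rose by 1.93 ± 0.18 and H2-Q4 by 1.29 ± 0.2. The light chain B2m was at 0.0 ± 0.1, with 13.51 and 13.6 in naive 3 h cells, against 13.57 and 13.53 in naive 0 h cells. Of 10 immunoproteasome and proteasome activator genes 5 rose (median 0.34). Psmb9 had 11.34 and 11.21 in naive 3 h cells, against 10.07 and 10.05 in naive 0 h cells (1.21 ± 0.1, 2.32-fold). Psmb10 was also 2.32-fold and Psmb8 1.74-fold higher; these are the 3 catalytic subunits that replace the constitutive ones. The activator subunits Psme1 (0.48 ± 0.1) and Psme2 (0.43 ± 0.1) lost the call with some arrays left out, at adjusted p as high as 0.165 on leaving out replicate 3 of naive 0 h and as high as 0.158 on leaving out replicate 1 of naive 3 h.

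MHC class II genes, which present antigen to helper T cells, did not show such a rise at 3 h. Of 10 measured 1 rose, the peptide exchange factor H2-DMa, with 11.08 and 10.52 in naive 3 h cells, against 10.0 and 9.86 in naive 0 h cells (0.87 ± 0.19, limma adjusted p = 0.0151). It lost the call on leaving out either naive 0 h array or replicate 1 of naive 3 h (adjusted p as high as 0.165). The other members varied more between replicates than between times. H2-Aa, the alpha chain of I-A, had 9.88 and 5.73 in naive 3 h cells, against 9.52 and 5.14 in naive 0 h cells. Cd74, the invariant chain, had 11.72 and 8.71 in naive 3 h cells, against 11.19 and 7.97 in naive 0 h cells. H2-Ab1 had 10.08 and 7.3 in naive 3 h cells, against 9.4 and 7.05 in naive 0 h cells. In each gene the high value of both times comes from the array at position 1 or 3 of the set in the sample titles and the low value from position 5 or 7. What the positions stand for is not given in the sources used here. Within positions 1 and 3 the 3 h minus 0 h difference was 0.36 for H2-Aa, 0.68 for H2-Ab1 and 0.53 for Cd74, and within positions 5 and 7 it was 0.59, 0.25 and 0.75. H2-Eb1, the beta chain of I-E, differed by 0.36 within the first positions and -0.02 within the second. Ciita had 9.38 and 7.45 in naive 3 h cells, against 7.16 and 6.43 in naive 0 h cells (1.62 ± 0.54, limma adjusted p = 0.127), a difference of 2.22 within the first positions and 1.02 within the second.

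**Figure D3:**
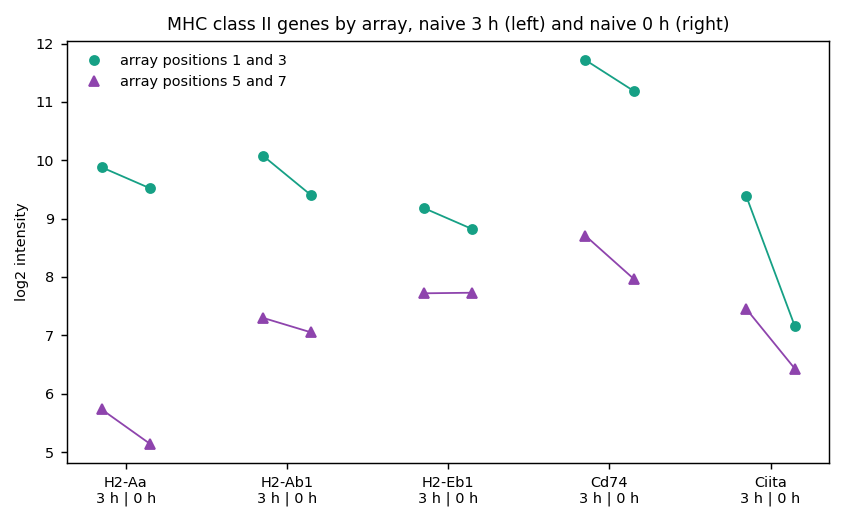
Log2 intensity of 4 MHC class II genes and Ciita on each array, naive 3 h left of naive 0 h within each gene; lines join arrays of neighbouring positions in the titles. Arrays at positions 1 and 3 lie above those at positions 5 and 7 in each of the 5 genes.

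Antiviral genes rose as a block. Of 36 antiviral genes measured, all known targets of interferons, 29 rose and none fell (median 1.35), and 22 kept the call whichever of the 4 arrays was omitted. Zbp1, a sensor of Z-form nucleic acid, had 11.57 and 11.88 in naive 3 h cells, against 7.92 and 8.73 in naive 0 h cells (3.4 ± 0.21, 10.5-fold). Ifit2, which binds viral RNA, had 12.82 and 13.01 in naive 3 h cells, against 9.58 and 9.92 in naive 0 h cells (3.16 ± 0.2, 8.96-fold). Mx1, a GTPase against influenza viruses, had 9.38 and 11.28 in naive 3 h cells, against 6.96 and 7.99 in naive 0 h cells (2.86 ± 0.49, 7.24-fold), with a wider spread. Replicate 2 at 3 h and replicate 4 at 0 h were the higher arrays for Mx1, as for Ifit1 (11.88 and 12.51 in naive 3 h cells, against 9.3 and 9.97 in naive 0 h cells) and Rsad2, known as viperin (11.83 and 12.6, against 10.24 and 10.58). The RNA sensors Ifih1, Dhx58 and Ddx58 were 2.59, 2.48 and 1.83-fold higher, and the RNA-activated kinase Eif2ak2 2.7-fold. Oas3, a synthase of the messenger that activates RNase L, was 2.52-fold higher. Samhd1, which breaks down nucleotides, rose by 1.1 ± 0.12 and the RNA editor Adar by 1.09 ± 0.13. The 7 calls that were lost on leaving out some array were those of Usp18, given above, Isg20, Ifitm1, Ifit3b, Oas1a, Sp100 and Oas2. Their highest adjusted p was 0.373 for Isg20, 0.165 for Ifit3b, 0.125 for Sp100 and 0.103 for Oas2, all on leaving out replicate 2 of naive 3 h. It was 0.208 for Ifitm1 on leaving out replicate 4 of naive 0 h and 0.128 for Oas1a on leaving out replicate 3 of naive 0 h. Mx2 (1.6 ± 0.45, limma adjusted p = 0.0608) and Oasl1 (1.36 ± 0.4, limma adjusted p = 0.0818) did not pass.

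Some genes of the Ifi200 family and the adaptor of DNA sensing rose at 3 h. Of 13 genes of cytosolic nucleic acid sensing and the Ifi200 family 6 rose and 1 fell (median 0.53). Ifi205 had 12.15 and 12.47 in naive 3 h cells, against 7.43 and 7.85 in naive 0 h cells (4.67 ± 0.16, 25.5-fold), and Ifi213, Ifi209 and Ifi203 were 13.5, 4.69 and 2.94-fold higher. Sting1, the adaptor of DNA sensing, had 13.16 and 13.11 in naive 3 h cells, against 11.7 and 11.74 in naive 0 h cells (1.42 ± 0.12). The inflammasome sensor Aim2 (0.33 ± 0.16, limma adjusted p = 0.382) and the DNA sensor Cgas (0.53 ± 0.34, limma adjusted p = 0.569) did not pass. Mavs, the adaptor of the RNA sensors, fell by 0.59, with 10.49 and 10.34 in naive 3 h cells, against 11.03 and 10.99 in naive 0 h cells. It lost the call whichever of the 4 arrays was omitted, at adjusted p as high as 0.269 on leaving out replicate 2 of naive 3 h. The kinase Ikbke rose by 0.52 ± 0.13 and lost the call likewise, as high as 0.19 on leaving out replicate 3 of naive 0 h.

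Enzymes that attach ADP-ribose or ubiquitin formed a further block. Of 23 PARP, Dtx3l, TRIM and related ubiquitin ligase genes 18 rose and none fell (median 1.12), and 16 kept the call whichever of the 4 arrays was omitted. Parp10, a mono-ADP-ribosyltransferase, had 10.86 and 10.99 in naive 3 h cells, against 8.85 and 8.96 in naive 0 h cells (2.02 ± 0.12, limma adjusted p = 6.54e-07). Parp14 had 12.68 and 12.69 in naive 3 h cells, against 10.93 and 10.95 in naive 0 h cells (1.74 ± 0.12). Dtx3l and Parp9, which form 1 complex, were 2.88 and 3.05-fold higher. Parp11 was 3.66-fold and Parp12 2.13-fold higher, and replicates of these genes lie well within a log2 unit. Trim21, an antibody receptor in the cytosol, was 3.66-fold higher, Trim30d 2.7-fold and Trim30a 1.74-fold. Trim12a and Rnf114 lost the call on leaving out some array, at adjusted p as high as 0.126 for replicate 4 and 0.106 for replicate 3 of naive 0 h. Of the Isg15 conjugation enzymes, Uba7 was 2.28-fold and Ube2l6 1.88-fold higher. Of 16 Schlafen and Ms4a genes 8 rose and none fell (median 0.71). Slfn5 had 12.98 and 13.01 in naive 3 h cells, against 10.82 and 10.75 in naive 0 h cells (2.21 ± 0.16). Slfn8 and Slfn2 were 2.61 and 1.76-fold higher, Slfn1 rose by 3.01 ± 0.48 from a mean under 6.5, and Ms4a4c was 4.67-fold higher. Slfn3, Slfn9 and Ms4a6d lost the call with some arrays left out, at adjusted p as high as 0.109 on leaving out replicate 3 of naive 0 h, as high as 0.108 on leaving out replicate 2 of naive 3 h and as high as 0.22 on leaving out replicate 4 of naive 0 h.

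Caspases, death receptors and their ligands were in part higher at 3 h. Of 22 genes of inflammasomes, apoptosis and necroptosis 8 rose and none fell (median 0.33). Casp4, which senses bacterial lipopolysaccharide in the cytosol, had 12.44 and 12.2 in naive 3 h cells, against 10.3 and 9.48 in naive 0 h cells (2.43 ± 0.26, 5.39-fold). Casp12 had 9.07 and 9.42 in naive 3 h cells, against 5.08 and 4.77 in naive 0 h cells. The death ligand Tnfsf10 was 19.0-fold higher, the death receptor Fas 4.53-fold, and Mlkl, which opens the membrane in necroptosis, 2.75-fold. Casp1 (0.91 ± 0.18) and its pore-forming substrate Gsdmd (0.62 ± 0.16) lost the call with some arrays left out, at adjusted p as high as 0.0832 on leaving out replicate 1 of naive 3 h and as high as 0.318 on leaving out replicate 4 of naive 0 h.

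Of 22 genes of immune metabolism 6 rose and none fell (median 0.45). Acod1, the enzyme that makes itaconate, had 13.25 and 13.31 in naive 3 h cells, against 8.5 and 9.23 in naive 0 h cells (4.42 ± 0.28, 21.4-fold). Upp1, uridine phosphorylase, was 5.46-fold higher and Nampt, of NAD synthesis, 3.2-fold. Nos2, the inducible nitric oxide synthase, had 8.07 and 8.37 in naive 3 h cells, against 5.89 and 6.06 in naive 0 h cells (2.24 ± 0.48, limma adjusted p = 0.0148). Gch1, which makes the cofactor of Nos2, rose by 1.25 ± 0.33 and Ido1, of tryptophan breakdown, by 0.57 ± 0.14 at levels under 6.5. Nos2, Gch1 and Ido1 lost the call whichever of the 4 arrays was omitted, at adjusted p as high as 0.116, 0.332 and 0.254, all on leaving out replicate 2 of naive 3 h. None of the 5 NADPH oxidase genes measured was called, where 5.46% of all genes were. Cybb, the catalytic subunit, had 13.29 and 13.11 in naive 3 h cells, against 13.29 and 13.05 in naive 0 h cells. Ch25h, which makes 25-hydroxycholesterol, had the largest change of a gene that was not called (3.41 ± 1.08, limma adjusted p = 0.108), with 10.67 and 11.77 in naive 3 h cells, against 6.17 and 9.45 in naive 0 h cells.

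Among cytokines and their receptors, the changes ran from the NK cell factor Il15 to the receptors of IL-4 and IL-18. Of 25 cytokine genes 5 rose and none fell (median 0.09), and of 24 cytokine receptors 10 rose and 1 fell (median 0.29); the difference between these shares was not tested. Il15, which sustains NK cells, had 11.55 and 11.62 in naive 3 h cells, against 9.93 and 9.6 in naive 0 h cells (1.82 ± 0.25), and Il15ra, which presents it, was 4.64-fold higher. The antagonists Il1rn and Il18bp were 3.72 and 3.27-fold higher. Il18 (0.94 ± 0.18) and Csf1 (2.38 ± 0.42) lost the call with some arrays left out, at adjusted p as high as 0.114 on leaving out replicate 2 of naive 3 h and 0.0502 on leaving out replicate 4 of naive 0 h. Tnf had 12.13 and 10.88 in naive 3 h cells, against 9.45 and 10.83 in naive 0 h cells (1.37 ± 0.65, limma adjusted p = 0.348). Il6, Il12b and Il1b were at -0.03 ± 0.12, 0.06 ± 0.25 and -0.13 ± 0.47.

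Among the receptors, Il4ra had 12.81 and 12.88 in naive 3 h cells, against 11.01 and 10.89 in naive 0 h cells (1.9 ± 0.12, limma adjusted p = 1.14e-06), and Il13ra1, its partner for IL-13, was 3.36-fold higher. Il18rap, a chain of the IL-18 receptor, was 7.7-fold higher, Tnfrsf1a, a receptor of Tnf, 2.57-fold, and Il10ra 2.48-fold. Csf2rb, the shared chain of the Csf2 receptor, was 2.9-fold higher. Csf2rb2 (1.42 ± 0.31) and Il12rb1 (0.9 ± 0.21) lost the call with some arrays left out, at adjusted p as high as 0.158 on leaving out replicate 4 of naive 0 h and as high as 0.199 on leaving out replicate 3 of naive 0 h. So did Il10rb, the 1 receptor that fell (by 0.61 on the log2 scale), as high as 0.356 on leaving out replicate 2 of naive 3 h.

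Molecules that macrophages show to T and NK cells changed both ways. Of 24 costimulatory, checkpoint and SLAM genes 7 rose and 2 fell (median 0.42). Cd274, the checkpoint ligand PD-L1, had 13.08 and 12.59 in naive 3 h cells, against 9.87 and 8.23 in naive 0 h cells (3.79 ± 0.55, 13.8-fold). Cd40 had 11.96 and 11.99 in naive 3 h cells, against 8.57 and 9.42 in naive 0 h cells (2.98 ± 0.32, 7.87-fold). Cd86, a ligand of Cd28, had 10.56 and 10.16 in naive 3 h cells, against 8.11 and 7.32 in naive 0 h cells (2.64 ± 0.24, 6.25-fold). Its relative Cd80 did not pass (-0.59 ± 0.37, limma adjusted p = 0.558), so the 2 ligands of the same receptor were on different sides of the threshold, without a test of that difference. Cd69, an early activation marker, was 22.3-fold higher. Slamf8 rose by 4.63 ± 0.3, Sectm1a by 5.02 ± 0.38 and Klrk1, the NK receptor NKG2D, by 2.88 ± 0.4, each from a mean under 6.5. Havcr2, known as TIM-3, and Cd48 fell by 0.88 and 0.53 on the log2 scale. Both lost the call with some arrays left out, as high as 0.0642 and 0.22, each on leaving out replicate 2 of naive 3 h.

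Of 18 Fc gamma receptor and complement genes 8 rose and 1 fell (median 0.27). Fcgr4 had 12.62 and 12.62 in naive 3 h cells, against 10.04 and 9.54 in naive 0 h cells (2.83 ± 0.2, 7.11-fold), and Fcgr1, the high-affinity receptor, had 12.65 and 12.9 in naive 3 h cells, against 10.7 and 11.26 in naive 0 h cells (1.8 ± 0.18, 3.47-fold). Of complement, factor B, Cfb, was 3.02-fold and C1ra 2.29-fold higher. These 4 kept the call whichever of the 4 arrays was omitted. The rises of Fcgr2b, Fcgr3, C4b and C1s1 and the fall of C5ar1, a receptor of complement fragment C5a, did not. Their highest adjusted p was 0.286 for Fcgr2b and 0.163 for Fcgr3, both on leaving out replicate 4 of naive 0 h, and 0.0817 for C4b on leaving out replicate 2 of naive 3 h. It was 0.0648 for C1s1 and 0.333 for C5ar1, both on leaving out replicate 1 of naive 3 h.

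Of 30 genes of Toll-like receptor and NF-kappa-B signalling 6 rose and 2 fell (median 0.24), against 3.37% and 2.09% of all genes. The adaptor Myd88 had 12.79 and 12.86 in naive 3 h cells, against 11.7 and 11.66 in naive 0 h cells (1.14 ± 0.1, 2.21-fold). Tlr3, the receptor of double-stranded RNA, was 2.75-fold higher, the nuclear inhibitor Bcl3 3.49-fold and the prostaglandin synthase Ptgs2 12.8-fold. Tlr13, a receptor of bacterial ribosomal RNA, had 11.45 and 11.28 in naive 3 h cells, against 12.59 and 12.62 in naive 0 h cells (-1.24 ± 0.15, limma adjusted p = 0.000176). Irak3, an inhibitor of the pathway, fell by 0.81 on the log2 scale. Tlr2 and Tlr4 did not pass (-0.34 ± 0.26 and -0.04 ± 0.16). Tnfaip3 (1.33 ± 0.32) and Tirap (0.42 ± 0.11) lost the call with some arrays left out, at adjusted p as high as 0.261 on leaving out replicate 1 of naive 3 h and 0.298 on leaving out replicate 2 of naive 3 h.

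Phosphatases that switch off MAP kinases moved in opposite directions. Of 20 genes of MAPK phosphatases and mRNA decay 4 rose and 2 fell (median -0.14). Dusp10 had 9.82 and 9.55 in naive 3 h cells, against 7.79 and 7.71 in naive 0 h cells (1.94 ± 0.18), whereas Dusp1 had 9.46 and 7.98 in naive 3 h cells, against 11.04 and 11.13 in naive 0 h cells (-2.36 ± 0.43, limma adjusted p = 0.00493). Dusp1 lost the call on leaving out replicate 2 of naive 3 h (adjusted p = 0.0514). Dusp7, which acts on ERK, had 11.39 and 10.48 in naive 3 h cells, against 12.38 and 12.37 in naive 0 h cells (-1.44 ± 0.25). Zfp36, which degrades cytokine mRNA, was 2.34-fold higher. Dusp16 (1.14 ± 0.27) and Btg1 (0.76 ± 0.15) lost the call with some arrays left out, as high as 0.225 on leaving out replicate 3 of naive 0 h and as high as 0.127 on leaving out replicate 4 of naive 0 h. Of 26 immediate early transcription factors 3 rose and 1 fell, against 3.37% and 2.09% of all genes. Csrnp1 was 4.71-fold and Mafk 2.58-fold higher. Jun was 1.89-fold higher and lost the call on leaving out replicate 2 of naive 3 h (adjusted p = 0.0542), and its dimer partner Fos fell by 1.84 on the log2 scale, with 7.67 and 6.74 in naive 3 h cells, against 8.66 and 9.43 in naive 0 h cells. Fos lost the call on leaving out replicate 4 of naive 0 h or replicate 2 of naive 3 h (adjusted p as high as 0.0712).

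The largest fall was in a receptor that guides cell migration. Of 29 migration receptors and other G protein-coupled receptors 7 fell and 6 rose (median 0.08). S1pr1, a receptor for sphingosine-1-phosphate, had 6.57 and 5.88 in naive 3 h cells, against 10.4 and 10.39 in naive 0 h cells (-4.17 ± 0.18, limma adjusted p = 5.18e-08). Gpr183, which follows oxysterols, had 7.74 and 7.42 in naive 3 h cells, against 9.82 and 10.1 in naive 0 h cells (-2.38 ± 0.19, 5.2-fold lower). Cx3cr1, the receptor of the chemokine fractalkine, had 8.21 and 9.18 in naive 3 h cells, against 10.24 and 11.16 in naive 0 h cells (-2.0 ± 0.31, 4.01-fold lower). In all 3 the highest naive 3 h array lies at least a log2 unit below the lowest naive 0 h array. Gpr65, a proton sensor, fell by 1.32 on the log2 scale. Ccr3 and Ptger2 also fell, by 0.67 and 0.82, and lost the call with some arrays left out, as C5ar1 did, as high as 0.114 on leaving out replicate 2 of naive 3 h, 0.281 and 0.333 on leaving out replicate 1 of naive 3 h. The receptors that rose were Hcar2 (3.38 ± 0.51, from a mean under 6.5), the chemokine receptor Ccr1 (2.32 ± 0.37, 4.99-fold), the decoy Ccrl2, the nucleotide receptors P2ry14 and P2ry13, and S1pr2. The last 4 lost the call with some arrays left out, at adjusted p as high as 0.188 for Ccrl2 and for P2ry14 and 0.169 for P2ry13, all on leaving out replicate 4 of naive 0 h, and 0.131 for S1pr2 on leaving out replicate 2 of naive 3 h. S1pr2, a sphingosine-1-phosphate receptor like S1pr1, had 11.07 and 11.17 in naive 3 h cells, against 10.43 and 10.28 in naive 0 h cells (0.76 ± 0.17).

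Other large falls lay in receptors and regulators of the cytoskeleton. Cd300lb, an activating receptor for phospholipids, had 9.44 and 8.52 in naive 3 h cells, against 11.93 and 11.57 in naive 0 h cells (-2.78 ± 0.32, 6.85-fold lower), while Cd300lf, an inhibitory receptor of that family, had 10.65 and 10.4 in naive 3 h cells, against 8.74 and 8.31 in naive 0 h cells (2.0 ± 0.31, 4.0-fold higher). Both belong to a list of 21 scavenger and phosphatidylserine receptors of which 1 rose and 2 fell. Of all genes, 3.37% rose and 2.09% fell, and such small counts were not tested against these shares. The other fall there was Cd163, of haemoglobin uptake, by 0.66 on the log2 scale, which lost the call whichever of the 4 arrays was omitted (adjusted p as high as 0.313, on leaving out replicate 4 of naive 0 h). The GTPase Rhob had 7.49 and 6.71 in naive 3 h cells, against 9.68 and 9.65 in naive 0 h cells (-2.56 ± 0.36, 5.9-fold lower). Rasgrp3, a Ras activator, had 9.3 and 8.99 in naive 3 h cells, against 11.64 and 11.55 in naive 0 h cells (-2.44 ± 0.32, 5.44-fold lower). Rasgrp1, of the same family, rose by 1.43 ± 0.17 from a mean under 6.5. Cdc42ep2 and Arhgef3 were 7.02 and 3.59-fold higher and the inhibitory GTPase Rhoh 2.49-fold. Rnd1, Rasgrp4 and Rgl1 rose as well but lost the call with some arrays left out, at adjusted p as high as 0.254 on leaving out replicate 2 of naive 3 h and, on leaving out replicate 1 of naive 3 h, as high as 0.195 and 0.0841. Arhgap22, which switches Rac off, and the exchange factors Fgd4 and Fgd3 for Cdc42 were 4.43, 3.2 and 3.1-fold lower. C5ar2, a second receptor of C5a, was 4.41-fold lower, thrombomodulin, Thbd, 3.45-fold and Smad3, of TGF-beta signalling, 3.39-fold.

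Of 28 macrophage lineage transcription factors and markers 3 rose and 3 fell (median -0.21), against 3.37% and 2.09% of all genes. Their log2 changes ranged from -2.04 to 1.56. The lowest value is that of Bhlhe41, which did not pass (limma adjusted p = 0.105). Maf, a factor of resident macrophages, had 11.78 and 11.85 in naive 3 h cells, against 12.75 and 12.64 in naive 0 h cells (-0.88 ± 0.1, limma adjusted p = 0.000152), and Mef2c was 1.63-fold lower. Zeb2 fell by 0.46 on the log2 scale and lost the call whichever of the 4 arrays was omitted, as high as 0.297 on leaving out replicate 2 of naive 3 h. Irf8 and Cebpb are given above. Tfec rose by 1.4 ± 0.28 and lost the call on leaving out replicate 4 of naive 0 h or replicate 2 of naive 3 h (adjusted p as high as 0.102). Of 43 cell cycle genes 4 fell and none rose, and their median of -0.47 lies below the median of 0 over all genes. Cdk2, the kinase of S phase entry, had 9.46 and 9.6 in naive 3 h cells, against 10.27 and 10.35 in naive 0 h cells (-0.78 ± 0.13). Ccne2, E2f2 and E2f7 lost the call with some arrays left out, at adjusted p as high as 0.296 and 0.224 for Ccne2 and E2f7 on leaving out replicate 1 of naive 3 h and 0.0963 for E2f2 on leaving out replicate 4 of naive 0 h.

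The remaining lists had 0 to 3 risen members each. Of all genes, 3.37% rose and 2.09% fell. The share of risen members was above 3.37% among C-type lectin receptors, adhesion genes, histone H3.3 genes and reference genes, though their counts are small. No sterol and lipid gene and no heat shock gene rose. Of 17 C-type lectin receptors 2 rose: Clec10a, which binds galactose-type sugars, was 5.91-fold higher, and Clec2d (1.2 ± 0.25) lost the call without either naive 3 h array (adjusted p as high as 0.0858). Of 18 adhesion genes 2 rose: Icam1, the ligand of leukocyte integrins, was 4.21-fold higher, with 12.87 and 12.51 in naive 3 h cells, against 10.88 and 10.35 in naive 0 h cells, and Itga4 (0.96 ± 0.18) lost the call on leaving out replicate 4 of naive 0 h or replicate 1 of naive 3 h (adjusted p as high as 0.0903). Vcam1 was at -0.05 ± 0.52. Of 25 genes of sterols and lipids Abcd2 fell by 2.08 on the log2 scale; it lost the call on leaving out replicate 3 of naive 0 h or any naive 3 h array (adjusted p as high as 0.101). None of 14 heat shock genes was called. Of 18 genes of histone H3.3, its chaperones and H3K36 methylation 3 rose and 1 fell. Daxx, an H3.3 chaperone that is also an antiviral gene, was 3.93-fold higher, with 11.29 and 11.72 in naive 3 h cells, against 9.44 and 9.62 in naive 0 h cells. Ubn2 (0.54 ± 0.14) and Nsd3 (0.47 ± 0.12) rose and Chaf1a fell by 0.89 on the log2 scale. These 3 lost the call with some arrays left out, at adjusted p as high as 0.223 for Ubn2 and 0.301 for Chaf1a on leaving out replicate 4 of naive 0 h and as high as 0.323 for Nsd3 on leaving out replicate 2 of naive 3 h. Of 11 genes often used as references 1, Hprt, was called, with 12.16 and 12.23 in naive 3 h cells, against 11.67 and 11.81 in naive 0 h cells (0.46 ± 0.12); it lost the call whichever of the 4 arrays was omitted (adjusted p as high as 0.26, on leaving out replicate 2 of naive 3 h). Actb was at -0.02 ± 0.09.

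**Figure D4:**
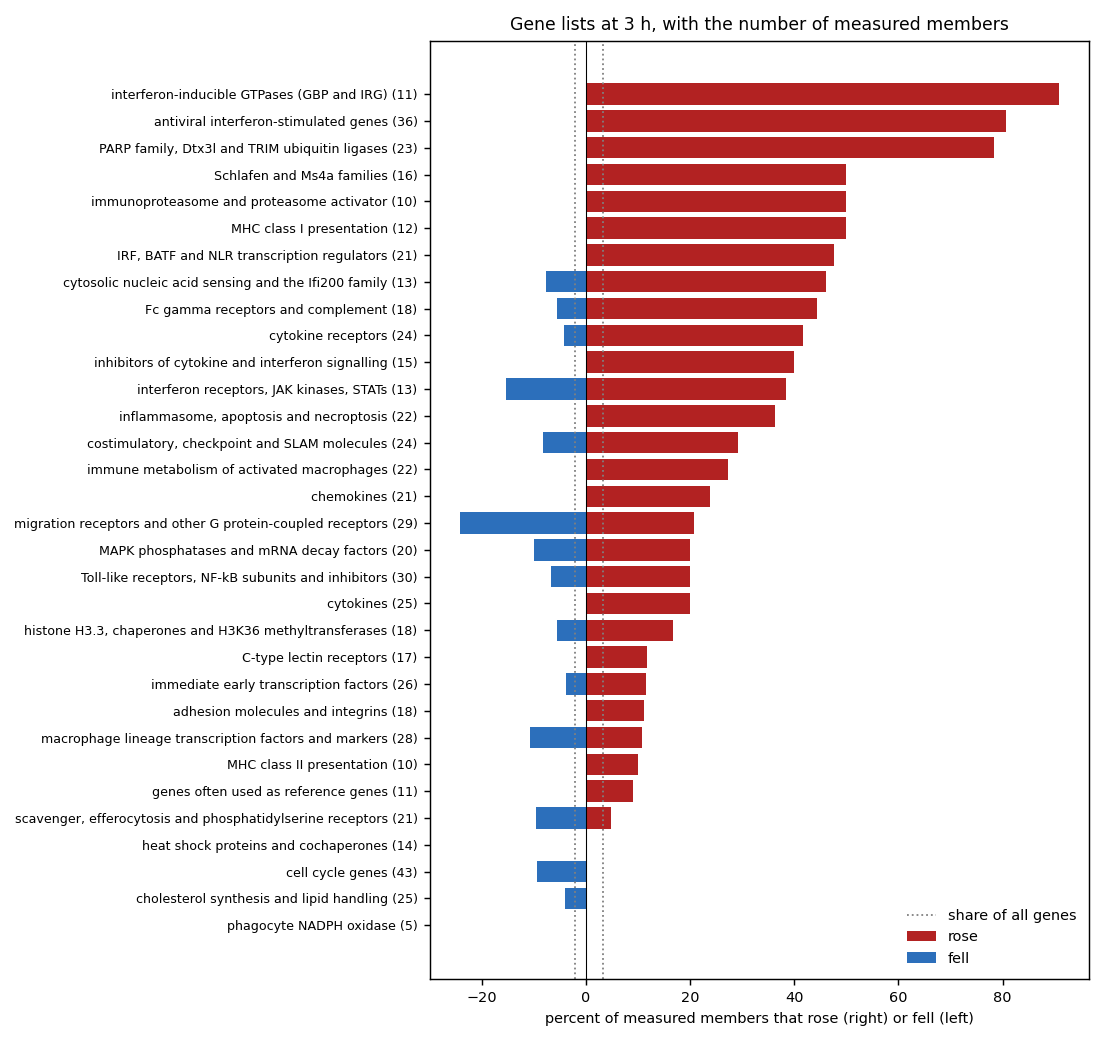
Percent of the measured members of each gene list shown that rose (red, right) or fell (blue, left) at 3 h, with the number measured in parentheses and dotted lines at the shares of all genes, 3.37% and 2.09%. Interferon-inducible GTPases, antiviral genes and PARP and ubiquitin genes have the longest red bars, and migration receptors the longest blue bar.

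Risen genes often lay side by side on the chromosome. Of 670 risen genes with a position, 217 (32.4%) had a risen gene as next measured gene on either side, against 6.43% of the 19851 measured genes with a position. Of 416 fallen genes 51 (12.3%) had a fallen neighbour, against 4.08% of all. The longest run was on chromosome 11 and held 7 genes of the Schlafen cluster, Slfn5os, Slfn5, Slfn9, Slfn8, Slfn10-ps, Slfn2 and Slfn1. On chromosome 17, 5 risen genes in a row, H2-DMa, Psmb9, Tap1, Psmb8 and Tap2, joined antigen processing of both MHC classes. The Ifit genes formed a run of 5 on chromosome 19, Gbp genes a run on chromosome 3 and another on chromosome 5, and Gm4951, Gm4841, Iigp1 and BC023105 a run of 4 on chromosome 18. Runs of 3 joined Stat5b, Stat5a and Stat3, Parp14, Dtx3l and Parp9, Casp1, Casp4 and Casp12, C1rl, C1ra and C1s1, and the receptors Fcgr2b, Fcgr4 and Fcgr3. Some of these neighbours are near-identical copies whose array features can share signal, which was not tested. Among fallen genes 1 run of 3 on chromosome 16 held the noncoding host gene Mir99ahg and the microRNA genes Mir99a and Mirlet7c-1. Genes of runs are named for their position and not by size.

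At 6 h, on separate arrays of set 1 with their own naive 0 h arrays, risen and fallen genes had moved much as at 3 h. Of the 671 risen genes 635 had a positive change at 6 h, with a median of 1.04, and of the 417 fallen genes 399 had a negative one, with a median of -0.79. In all 7.48% of genes were higher and 10.8% lower at 6 h. The 3 h response differed from the 6 h response in 61 of the genes called at 3 h, against 1.73% of all genes, and 9 of the 61 passed whichever of the 8 arrays was omitted. The genes called at 3 h were 1088. They were chosen by their 3 h change, which also enters this difference, so a larger share of differences among them is no test. Every 3 h array lies in set 2 and every 6 h array in set 1, so time and array set cannot be told apart here. The 9 genes are named next, chosen after their values were seen.

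Arid5a, a protein that stabilises cytokine mRNA, was higher at 3 h than at 6 h relative to its own 0 h arrays. It had 11.12 and 11.2 in naive 3 h cells and 8.24 and 7.86 in naive 0 h cells of set 2, and 10.62 and 10.63 in naive 6 h cells and 8.72 and 8.85 in naive 0 h cells of set 1 (difference of log2 changes 1.27 ± 0.18, limma adjusted p = 0.00664). Slc5a6, a vitamin transporter, differed in the same direction by 1.09 ± 0.16. It changed by 0.72 at 3 h and by -0.37 at 6 h, so its sign differed between the times. A smaller rise at 3 h than at 6 h was measured for Rasgrp1 (-2.39 ± 0.25), complement factor Cfb (-2.28 ± 0.37), Mmp25 (-2.19 ± 0.25), Plaat3 (-1.97 ± 0.28) and Dusp10 (-1.86 ± 0.25), where the negative sign means a smaller change at 3 h. Rasgrp1 had 7.63 and 7.54 in naive 3 h cells, against 10.72 and 10.16 in naive 6 h cells. Kif18b, a mitotic kinesin, fell by 0.45 at 3 h and by 2.44 at 6 h (2.0 ± 0.17, limma adjusted p = 0.00037), and Poc1b, a centriole protein, by 0.52 and 1.52. Like Slc5a6, the genes Gpr65, Samsn1 and Card6 had the other sign at 6 h, but their differences lost the call with arrays left out. Gpr65 changed by -1.32 at 3 h and 0.49 at 6 h (difference -1.81 ± 0.3, adjusted p as high as 0.0602 on leaving out replicate 2 of naive 3 h) and Samsn1 by -1.49 and 0.53 (-2.02 ± 0.34, as high as 0.0628 on leaving out replicate 4 of naive 0 h). Card6 changed by 1.74 and -0.32 (2.06 ± 0.36, as high as 0.0814 on leaving out replicate 2 of naive 0 h), and its naive 0 h arrays had 7.07 and 6.72 in set 2 and 8.3 and 8.6 in set 1.

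In pretreated cells, which the sample titles mark as having seen interferon earlier, the same 3 h step was measured on 4 other arrays of set 2. Of the 671 risen genes 669 had a positive change there, with a median of 0.73 against 1.03 in naive cells, and all 417 fallen genes had a negative one, with a median of -0.64 against -0.79. In pretreated cells 1.86% of all genes were called higher and 0.998% lower, among them 348 of the risen and 182 of the fallen genes. Since the genes were chosen in naive cells, a smaller median elsewhere is no test. In the test of the difference itself 16 genes (0.0802% of all) had a larger change in naive than in pretreated cells and none a smaller one in the limma fit, where 242 and 88 passed at an unadjusted p under 0.05. Of these 16, 8 passed whichever of the 8 arrays was omitted: Cxcl9, BC023105, Iigp1, Gm4951, Ifi205, Zbp1, Gm12250 and Tap1. Cxcl9 rose by 7.32 in naive and by 1.25 in pretreated cells (difference 6.07 ± 0.24, limma adjusted p = 1.09e-07), with the naive 0 h arrays under 6.5, so that the size is not exact. At 3 h it had 13.39 and 13.22 in naive cells and 13.3 and 13.41 in pretreated ones. The naive 0 h arrays had 5.99 and 5.98, and the pretreated 0 h arrays 11.92 and 12.3. Iigp1 had 12.66 and 12.67 on the naive 3 h arrays and 13.04 and 12.98 on the pretreated 3 h arrays. At 0 h the naive arrays had 6.17 and 6.37, and the pretreated arrays 10.88 and 11.31. For both genes the 3 h levels of the 2 kinds of cells lie close together, while the 0 h levels do not.

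**Figure D5:**
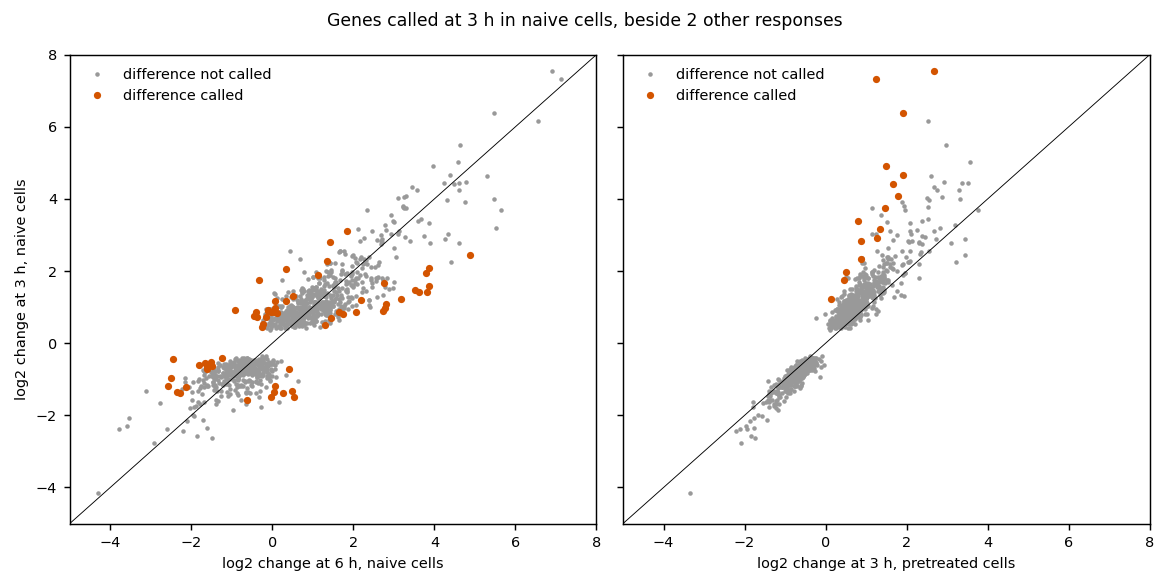
Log2 change at 3 h in naive cells (vertical) for each gene called there, against its change at 6 h in naive cells (left) and at 3 h in pretreated cells (right); the line marks equal changes and orange points are genes whose difference was called. The gap between positive and negative values comes from the choice of called genes, and at right the 16 orange points lie above the line.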

How the data were processed

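RNA of 16 macrophage samples was hybridised to 1-colour Affymetrix MoGene 1.0 ST arrays after Trizol extraction, per the labels. The authors deposited log2 intensities; the sources used here do not give the background correction or normalization. All per-sample columns were used, and the medians of the 8 arrays of set 2 lay between 6.886 and 6.997. Of 35557 features, 21789 carry 1 gene symbol in the platform annotation, giving 19938 genes, each taken at its feature with the highest mean. The 4 arrays compared are the only replicates of the comparison, and their number limits its precision.

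The fit was limma 3.58.1 in R 4.3.3 (lmFit and eBayes, two-sided, Benjamini-Hochberg over all genes) with a mean per group and array set, 8 in all, and 1 estimate of the spread shared by all 16 arrays. On simulated data for the 3 h comparison (19938 genes, 200 changed) it recovered 74% of changes of log2 1 and 96% of changes of log2 2, with 8 false calls. The simulated noise was independent between arrays, so it left out the deviations that arrays share by position, and these rates may not hold for the real arrays. A fold is given only where both group means reach log2 6.5, a limit set here and not a measured background. Beside other fits, the alternatives were other scalings, feature rules, a filter on dim genes and leaving out each array.

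The members and gene lists were chosen with earlier results of these data known, and no list was tested as a set. Genes named are the 30 largest rises and falls, up to 10 called and 3 uncalled genes of each list, the 15 largest differences each way of the 2 comparisons of responses and a fixed set of genes. Others are named as members of a list, a chromosome run or a set of shown promoters, after their values were seen. Promoters are those of RefSeq, matched by gene identifier. Some items are not reported here.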

Additional observations from a re-analysis of the deposited data

Results flagged for a closer look

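The change at 3 h was larger in naive than in pretreated cells for 16 genes by the test of that difference in the limma fit. The differences in log2 change, naive minus pretreated, were 6.07 for Cxcl9, 4.86 for BC023105, 4.48 for Iigp1, 3.42 for Gm4951, 2.77 for Ifi205, 2.76 for Acod1, 2.61 for Zbp1 and 2.30 for Gbp3. They were 2.29 for Gm12250, 1.94 for Fcgr4, 1.82 for Ifit2, 1.65 for Irf1, 1.47 for Nlrc5, 1.47 for Tap1, 1.32 for Tapbpl and 1.09 for Psmb9. Psmb9, for example, had 11.34 and 11.21 in naive cells at 3 h, against 10.07 and 10.05 at 0 h, and 11.5 and 11.37 in pretreated cells at 3 h, against 11.3 and 11.31 at 0 h. Of the 16, Acod1, Gbp3, Fcgr4, Ifit2, Irf1, Nlrc5, Tapbpl and Psmb9 lost the call with some arrays left out, at adjusted p up to 0.128, 0.31, 0.13, 0.31, 0.0639, 0.103, 0.31 and 0.0803. The highest value came without naive 3 h replicate 1 for Psmb9 and without pretreated 3 h replicate 2 for Gbp3, Ifit2 and Tapbpl.

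The response at 3 h differed from that at 6 h, each against its own naive 0 h arrays, with a more positive change at 3 h in 209 genes and a more negative one in 136, called at 3 h or not. Among genes called at 3 h the differences in log2 change, 3 h minus 6 h, were 1.27 for Arid5a, 1.09 for Slc5a6 and 2.06 for Card6, which rose at 3 h. They were -2.39 for Rasgrp1, -2.28 for Cfb, -2.19 for Mmp25, -1.97 for Plaat3 and -1.86 for Dusp10, which rose too. Of genes that fell at 3 h they were -2.02 for Samsn1, -1.81 for Gpr65, 2.0 for Kif18b and 1.0 for Poc1b. Kif18b had 10.39 and 10.49 in naive 3 h cells, against 10.95 and 10.84 in naive 0 h cells of set 2, and 7.32 and 7.28 in naive 6 h cells, against 9.81 and 9.67 in naive 0 h cells of set 1.

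Array features outside the table of genes also changed at 3 h. Of 1621 features with several symbols 51 rose (3.15%) and 4 fell, with a largest log2 change of 4.57. Of 12147 features with no symbol here 245 rose (2.02%) and 42 fell, with a largest log2 change of 6.85.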

How the results depend on the processing

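The 671 higher and 417 lower genes became 401 and 183 with only the 4 arrays compared, and 364 and 123 with a log2 change of at least 1 required as well. Leaving out 1 array gave 421 to 493 higher and 122 to 223 lower genes, fewest without naive 3 h replicate 2 in both directions. Median centring gave 646 higher and 335 lower genes, and quantile normalization 727 and 392. Of the genes differing between the 3 h and 6 h responses, 209 and 136, leaving out 1 array left 44 to 229 higher and 19 to 218 lower, fewest without naive 3 h replicate 2. The 16 genes with a larger change in naive than in pretreated cells became 8 to 14, fewest without pretreated 3 h replicate 2, and the opposite direction stayed at 0 in each alternative. Leaving out arrays of set 1 or of pretreated cells was chosen after seeing the data. Of 215 named genes with a call, 151 passed with only the 4 arrays, 205 with either other scaling and 162 to 179 with 1 array left out. Of 78 counts of gene list members 12 changed with median centring, by at most 1. Only genes that were not called reversed. H2-Aa ranged over -1.71 to 2.66 with 1 array left out, H2-Ab1 over -0.93 to 1.85, Cd74 over -0.97 to 2.25 and Ccl2 over -0.20 to 2.34. Omitting naive 0 h replicate 4 gave -1.71, -0.71 and -0.97 for H2-Aa, H2-Ab1 and Cd74, omitting naive 3 h replicate 1 gave -1.60, -0.93 and -0.87, and omitting naive 0 h replicate 3 gave -0.20 for Ccl2. The main fit was not paired. The labels give the compared groups no shared replicate numbers, and array positions are not said to mark a culture or batch. With positions 1 to 4 and 5 to 8 of each array set as a block, which pairs arrays by position, 952 genes were higher and 973 lower. The cause of these changes was not tested. Genes under 6.5 may lie in the arrays' background, which limits their changes.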
